A study of Mus musculus with 18 samples.

Results

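The genes described here are 51 cell cycle and DNA replication genes, of 20440 gene names listed for either experiment of the study. They were chosen by name, with earlier results of these data known. They comprise 11 genes for the licensing and firing of replication origins, 10 for the replication fork and the supply of nucleotides, 12 cyclins and cyclin-dependent kinases (CDKs), 10 for mitosis, 3 of the RB and E2F pathway (*E2f1*, *E2f2* and *Rb1*) and 5 inhibitors of CDKs. The inhibitors are counted apart from the other 46 genes, which are called the cycle genes below. The table of stages held 50 of the 51 genes, with *Bub1* not analysed there, and the table of fibroblasts held all 51.

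The study followed blood development by RNA-seq, with 18 mouse samples in 2 experiments. In the first, 10 samples were taken from embryonic stem cells (ESC) of strain 129 and from cells differentiated from them in culture, 2 per stage: mesoderm (MES), sorted as positive for a Brachyury-GFP reporter and negative for FLK1, hemangioblasts (HB), sorted as positive for both, hematopoietic progenitors (HP), sorted as CD41+, and macrophages (MAC), sorted as CD11b+. In the second, 8 single libraries were made from mouse embryonic fibroblasts (MEFs) of embryonic day 14.5, also of strain 129: untreated fibroblasts (uFIB) and MEFs with Scl/Lmo2 (SL), with Scl/Fli1/Gata2/Lmo2 (SFGL) or with Fli1/Gata2/Lmo2 (FGL), sampled 12 and 21 days on. Factors were delivered with expression vectors, some MEFs carried a cassette from which Tal1, also called Scl, is switched on with doxycycline, and the cells were kept in medium with hematopoietic cytokines. All stages come from 1 reporter ESC system grown on fibroblast feeders, and the labels do not say which MEF libraries came from wild type embryos and which from embryos with the cassette, so that the source of Scl in SL and SFGL is not known here. Hemogenic endothelium (HE), which the study places between HB and HP, was not analysed here, so that statements on stages cover these 5 only.

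Values are FPKM, fragments counted per length of transcript and per depth of the library, as deposited by the authors. The deposited value of each stage already combines both replicates, and each MEF condition has 1 library, so no value has a replicate error and no difference was tested. Differences are given on log2(FPKM + 1), so that changes of low genes come out too small, and a gene is said to have risen, fallen or changed where it differed at least 2-fold (a difference of at least 1) on this scale and reached at least 1 FPKM in either condition. Beside the first count of genes in each comparison and direction stands the share of all genes above 1 FPKM that did the same, against which later counts of that comparison are to be read. Levels were compared within each table only, since the tables were normalized separately. In these bulk samples fewer dividing cells and less RNA per cell cannot be told apart.

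As background, a cell prepares to copy its DNA by loading the MCM helicase onto origins with the help of ORC, CDC6 and CDT1. D cyclins with CDK4 or CDK6 phosphorylate RB, which releases E2F factors to switch on replication genes, and cyclins E, A and B with CDK2 and CDK1 then drive replication and entry into mitosis. Inhibitors of the CDKN1 family bind cyclin-CDK complexes and those of the CDKN2 family bind CDK4 and CDK6. Progenitors in culture usually divide, whereas many mature blood cells have left the cycle.

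The promoters are shown first because the replication and the mitosis genes moved together in both experiments. RefSeq promoters (GRCm38.p6, 250 bases before to 50 bases after the start of transcription) were matched for 43 of the 51 genes, with 50 promoters in all since 7 genes have 2 starts. *Pole*, *Aurkb*, *Rb1*, *Ccnd1*, *Ccna2*, *Ccne2*, *Ccnd2* and *Mcm4* had no match. Each promoter was searched on both strands for an E2F motif (TTTGGCGC, TTTCCCGC, TTTGCCGC or TTTCGCGC), for the cell cycle genes homology region or CHR (TTTGAA or TTCGAA) and for CCAAT, which are known elements of replication and mitosis promoters. The E2F letters were in 7 of 11 promoters of origin genes (63.6%), in 2 of 10 of fork genes (20%), in 0 of 9 of mitosis genes and in 2.26% of all 32851 mouse promoters of this length. The CHR letters were in 7 of 9 promoters of mitosis genes (77.8%), in 2 of 11 of origin genes (18.2%) and in 19.2% of all promoters. CCAAT was in 7 of 9 promoters of mitosis genes (77.8%), in 9 of 11 of origin genes (81.8%) and in 37.4% of all promoters. A match is a stretch of letters and not a shown binding site.

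Mcm5 and Mcm6, which encode subunits of the MCM helicase, stand for the origin genes with several E2F matches, Cdc20 and Plk1, an activator of the anaphase-promoting complex and a mitotic kinase, for the mitosis genes with CHR and CCAAT, and Cdk1, the kinase of entry into mitosis, for a promoter with all 3 motifs. Capitals mark every match, and the last 50 bases follow the start of transcription. The windows are chr8:75109259-75109558 (plus strand) for Mcm5, chr1:128359656-128359955 (minus strand) for Mcm6, chr4:118437294-118437593 (minus strand) for Cdc20, chr7:122159185-122159484 (plus strand) for Plk1 and chr10:69352863-69353162 (minus strand) for Cdk1.
Mcm5: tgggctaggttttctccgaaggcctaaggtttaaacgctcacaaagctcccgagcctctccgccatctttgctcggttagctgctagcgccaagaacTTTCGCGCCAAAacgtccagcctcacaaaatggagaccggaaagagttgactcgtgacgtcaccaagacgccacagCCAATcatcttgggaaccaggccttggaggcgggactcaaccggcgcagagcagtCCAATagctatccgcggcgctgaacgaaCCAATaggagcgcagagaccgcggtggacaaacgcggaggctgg
Mcm6: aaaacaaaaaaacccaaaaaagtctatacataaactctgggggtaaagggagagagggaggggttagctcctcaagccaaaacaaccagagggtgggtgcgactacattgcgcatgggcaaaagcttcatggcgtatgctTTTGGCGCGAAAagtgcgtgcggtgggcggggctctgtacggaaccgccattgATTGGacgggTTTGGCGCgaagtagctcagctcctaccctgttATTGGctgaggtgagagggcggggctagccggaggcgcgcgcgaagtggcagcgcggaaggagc
Cdc20: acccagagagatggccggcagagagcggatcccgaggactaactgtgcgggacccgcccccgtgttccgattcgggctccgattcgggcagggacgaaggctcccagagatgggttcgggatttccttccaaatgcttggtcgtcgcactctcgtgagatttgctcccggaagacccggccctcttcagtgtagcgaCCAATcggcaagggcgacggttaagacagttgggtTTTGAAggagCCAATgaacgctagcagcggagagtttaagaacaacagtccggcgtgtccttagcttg
Plk1: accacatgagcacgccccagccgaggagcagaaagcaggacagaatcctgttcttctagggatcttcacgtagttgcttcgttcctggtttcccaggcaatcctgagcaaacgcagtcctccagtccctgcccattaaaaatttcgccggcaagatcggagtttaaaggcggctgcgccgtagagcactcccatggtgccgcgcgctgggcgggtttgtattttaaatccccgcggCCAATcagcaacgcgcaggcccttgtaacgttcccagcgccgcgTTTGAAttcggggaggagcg
Cdk1: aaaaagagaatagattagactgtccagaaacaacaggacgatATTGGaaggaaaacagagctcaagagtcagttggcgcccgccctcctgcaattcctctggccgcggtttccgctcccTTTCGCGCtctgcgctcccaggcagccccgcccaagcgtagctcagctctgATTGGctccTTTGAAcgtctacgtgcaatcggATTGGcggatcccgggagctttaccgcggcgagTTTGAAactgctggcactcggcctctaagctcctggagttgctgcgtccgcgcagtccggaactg
In *Mcm5* an E2F match on the plus strand began at base -153 and one on the opposite strand at -149, so that they overlap. *Mcm6* had such an overlapping pair at -110 and -106 and another match at -47. The CHR match of *Cdc20* began at -18 between CCAAT matches at -53 and -8, that of *Plk1* at 31 after CCAAT at -14, and those of *Cdk1* at -71 and -15. Matches of different motifs did not overlap in these 5 windows.

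The markers of pluripotent cells, blood progenitors and macrophages were highest in the stage their label names, while others were less clear. Of the mesoderm genes, *T* was higher in MES (142 FPKM) than in HB (36.4 FPKM). *Mixl1* and *Eomes* were higher in HB (80.4 and 55 FPKM) than in MES (46.9 and 34.9 FPKM). Of the genes of hemangioblasts and endothelium, *Kdr* and *Etv2* were higher in HB (77.6 and 46.7 FPKM) than in HP (21.4 and 2.06 FPKM). The endothelial gene *Cdh5* was higher in HP (10.8 FPKM) than in HB (1.70 FPKM). The gene of the sorting marker CD11b was not analysed here. The macrophage genes *Csf1r*, *Emr1*, *Cd68* and *Mpeg1* summed to 1276 FPKM in MAC and to at most 7.79 FPKM elsewhere among the stages. The pluripotency genes *Pou5f1*, *Nanog* and *Zfp42* summed to 541 FPKM in ESC and still to 266 in MES, and the 3 embryonic globins *Hbb-bh1*, *Hba-x* and *Hbb-y* summed to 6783 FPKM in HP, so that the HP value includes RNA of red cell genes. The same globins summed to 52.3 FPKM in ESC and 0.268 in MES, and the 5 fibroblast markers to 60.4 FPKM in HP and to at most 4.77 in the other stages. All genes summed to between 180554 and 201844 FPKM in ESC, MES, HB and HP and to 381686 FPKM in MAC. From HP to MAC the median gene differed by 0.45 as deposited and by -0.21 when both were brought to a common upper quartile, from MES to HB it differed by 0.13 and from HB to HP by -0.13. At these steps some differences are given with the shift of the median gene taken off. After the scaling, 44.1% of the genes that changed from HP to MAC rose, against 70.7% as deposited.

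From ESC to HP the cycle genes held nearly the same share of expression, and in MAC that share fell (the heat map of levels by stage). The 45 cycle genes in the table of stages made up 1.13% of all FPKM in ESC, 1.03% in MES, 1.10% in HB and 1.01% in HP, and 0.115% in MAC. Over ESC, MES, HB and HP 32 of the 45 genes stayed within 2-fold of each other, and the median ratio of the highest to the lowest of these 4 stages was 1.59. MAC was the lowest stage for 37 of the 45 genes. The highest was HB for 17, ESC for 14, HP for 8, MAC for 5 and MES for 1. The counts within 2-fold and by stage were not taken over all genes, so they are not shown to be particular to the cycle genes.

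**Figure D1:**
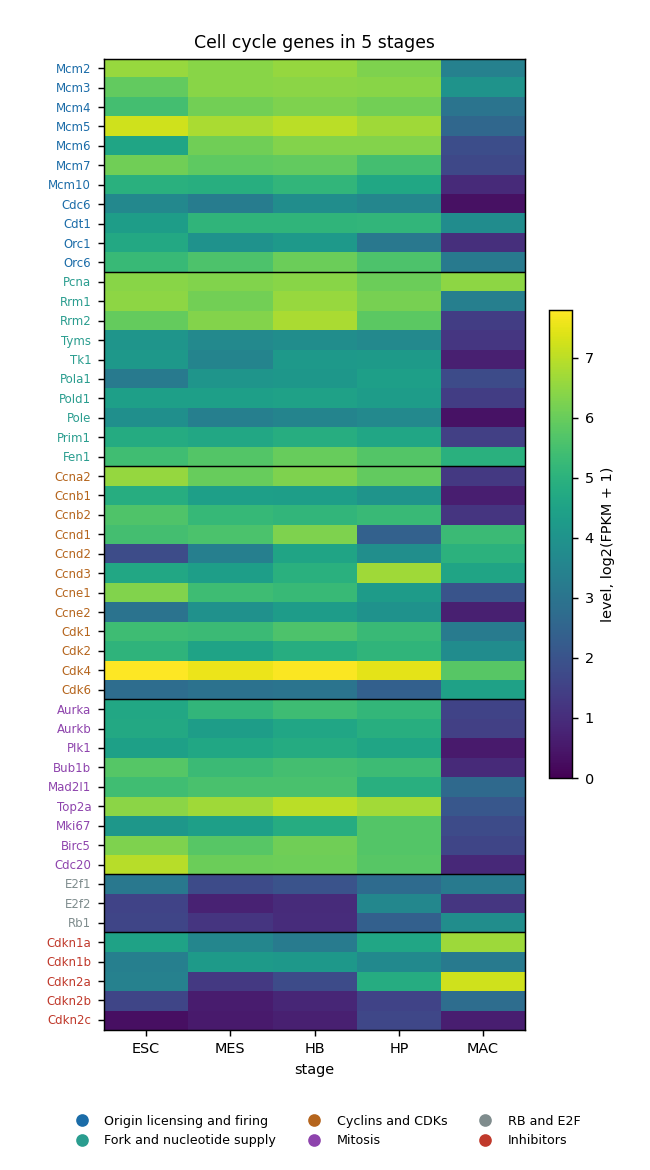
Levels of the 50 genes with values (rows, names coloured by role and separated by lines) in the 5 stages (columns), coloured by log2(FPKM + 1). The rows from *Mcm2* to *Cdc20* darken in MAC with few exceptions (*Pcna*, *Fen1*, the D cyclins *Ccnd1* and *Ccnd2*, and *Cdk6*), whereas the inhibitors *Cdkn1a* and *Cdkn2a* are brightest there.

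Before MAC few cycle genes changed, in shares near or below those of all genes, so the low counts are not shown to be particular to them. From ESC to MES 2 of 45 rose, where 6.94% of all genes rose, and 1 fell, where 7.3% fell. Other tools are named for ESC than for the later stages, and their part in this step was not tested. *Mcm6* (chr1:128331591-128359656) was at 23.0 FPKM in ESC, 68.5 in MES, 80.3 in HB and 79.9 in HP, so that ESC was its low stage among these 4 and its rise to MES was 1.53. The other 5 subunits of the helicase did not follow it, with log2 differences from ESC to MES between -0.43 (*Mcm5*, 150 to 111 FPKM) and 0.66 (*Mcm4*, 43.1 to 68.6 FPKM). As a result the share of *Mcm6* among *Mcm2* to *Mcm7* was 5.2% in ESC and 14.5% in MES. The second gene that rose was *Ccnd2*, from 2.48 to 9.28 FPKM, and *E2f1*, an activator of replication genes, fell from 7.61 to 2.46 FPKM. The cyclin *Ccne1*, which acts at the start of replication, had 79.5 FPKM in ESC, 40.4 in MES, 37.2 in HB and 18.3 in HP. No single step of this falling series passed 2-fold on log2(FPKM + 1), and that from HB to HP lay just under it. From MES to HB 1 of 44 cycle genes rose, *Ccnd2* to 22.3 FPKM, where 2.53% of all genes rose, and 0 fell, where 3.3% fell.

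At the step from HB to HP the D cyclins exchanged places. *Ccnd1* (chr7:144929931-144939925) was at 43.3 (ESC), 46.6 (MES), 77.8 (HB), 4.37 (HP) and 38.8 FPKM (MAC), so HP stood below every other stage. *Ccnd3* (chr17:47505051-47611492) was at 24.8, 19.6, 29.6, 101 and 22.6 FPKM in the same order, so HP stood above every other stage. *Ccnd1* thus fell by 3.87 on the log2 scale (-3.74 relative to all genes) while *Ccnd3* rose by 1.74 (1.87 relative to all genes). Among the summed FPKM of the D cyclins, *Ccnd1* made up 60.0% in HB and 3.7% in HP, and *Ccnd3* 22.8% and 84.9%. Of the 45 cycle genes, 3 rose at this step (*Ccnd3*, *E2f2* and *Rb1*), where 8.86% of all genes rose, and 2 fell (*Ccnd1* and *Orc1*), where 8.8% fell. *E2f2*, an activating E2F factor, was at 1.97 (ESC), 0.67 (MES), 0.94 (HB), 11.2 (HP) and 1.34 FPKM (MAC), which makes HP its high stage. *Mki67*, the proliferation marker Ki-67, was at 16.4, 20.2, 27.1, 51.3 and 2.46 FPKM, and its difference of 0.90 from HB to HP stayed under 2-fold.

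From HP to MAC 38 of the 45 cycle genes fell, where 13.9% of all genes fell, and 4 rose, where 33.4% rose (the plot of the difference from HP to MAC). The median of the cycle genes was -2.89, against 0.45 for all genes, and -3.49 with upper quartiles made equal. All 11 origin genes fell, with a median of -3.14, as did all 9 mitosis genes with values, with a median of -4.02, 8 of 10 fork genes, with a median of -2.85, and 9 of 12 cyclins and CDKs, with a median of -2.07. Mitosis genes together made up 0.224% of all FPKM in HP and 0.00504% in MAC. The blood progenitor markers *Itga2b*, *Gata1* and *Runx1* summed to 119 FPKM in HP and 18.4 in MAC, and the 3 globins fell to 15.6 FPKM. The fibroblast markers summed to 60.4 FPKM in HP and 2.80 in MAC, and those of hemangioblasts and endothelium to 34.3 and 7.91 FPKM. The part of these cell types in the differences was not tested.

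**Figure D2:**
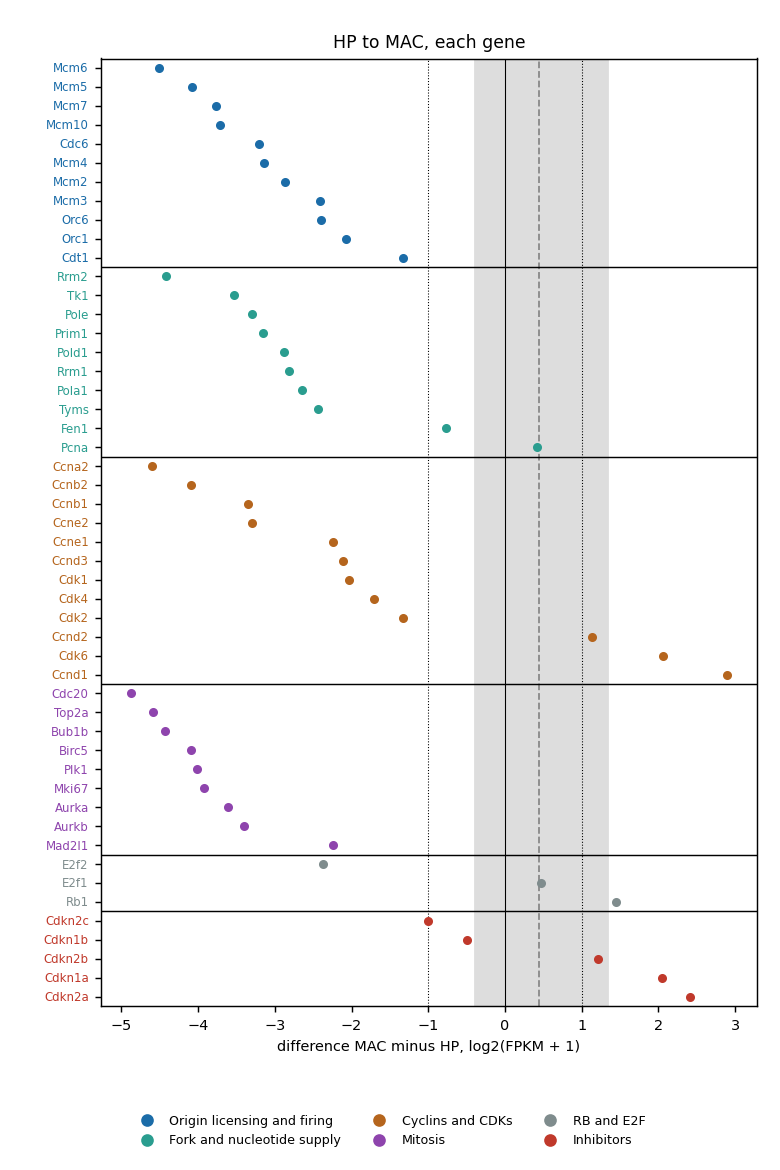
Difference from HP to MAC on log2(FPKM + 1) for each of the 50 genes (points), grouped and coloured by role and sorted within a role. The grey band spans the quartiles of all 10819 genes (-0.39 to 1.34), the dashed line marks their median of 0.45 and the dotted lines mark 2-fold; most points of the first 4 roles lie left of the band, and *Ccnd1*, *Cdk6*, *Rb1*, *Cdkn1a* and *Cdkn2a* lie right of it.

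Among the origin genes *Mcm6* fell most, from 79.9 to 2.56 FPKM, a difference of -4.5 (-4.95 relative to all genes). *Cdc6*, a loader of the helicase, was at 11.3 (ESC), 8.61 (MES), 13.1 (HB), 10.9 (HP) and 0.288 FPKM (MAC). *Cdt1*, its partner in loading, fell least, from 33.7 to 12.8 FPKM (-1.33). The 6 helicase subunits fell to unequal degrees, since *Mcm3* kept 14.9 of 83.3 FPKM and made up 36.0% of the sum of *Mcm2* to *Mcm7* in MAC after 18.3% in HP, while *Mcm6* went from 17.6% to 6.2%.

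Genes of the fork fell unequally in MAC. *Rrm2*, a subunit of the ribonucleotide reductase that makes deoxynucleotides, was at 60.4 (ESC), 80.7 (MES), 111 (HB), 56.4 (HP) and 1.69 FPKM (MAC) (-4.42 from HP), whereas *Rrm1*, the other subunit, fell from 72.0 to 9.32 FPKM (-2.82). *Pcna*, the sliding clamp of the polymerases, was at 83.1, 79.4, 83.4, 65.1 and 87.5 FPKM in the 5 stages. Its level thus lay within 1.34-fold over all stages, and its difference from HP to MAC was 0.42 as deposited, -0.03 relative to all genes and -0.30 with upper quartiles made equal. *Fen1*, the flap nuclease that processes lagging strands, went from 51.7 to 29.9 FPKM (-0.77, and -1.48 after the scaling). The replicative polymerase subunits *Pola1*, *Pold1*, *Pole* and *Prim1* all fell, by 2.64 to 3.30, with *Pole* going from 11.8 to 0.292 FPKM.

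Among the cyclins *Ccna2*, which acts in replication and in mitosis, fell most, from 59.1 to 1.47 FPKM (-4.60). The mitotic cyclins fell with it, *Ccnb1* from 15.2 to 0.587 FPKM and *Ccnb2* from 37.8 to 1.28 FPKM. *Cdk1* and *Cdk2* kept more of their level, at 8.42 of 37.6 and 12.7 of 33.5 FPKM. The genes that rose were *Ccnd1*, from 4.37 to 38.8 FPKM (2.89), *Cdk6* (chr5:3344312-3522225), from 4.29 to 21.0 FPKM (2.06), *Ccnd2*, from 13.6 to 30.9 FPKM (1.13), and *Rb1* (chr14:73195502-73325791), from 4.24 to 13.3 FPKM (1.45). With upper quartiles made equal *Ccnd1* and *Cdk6* were still past 2-fold (2.20 and 1.38), and *Ccnd2* and *Rb1* were not (0.43 and 0.79). *Cdk4* fell from 177 to 53.5 FPKM, so that *Cdk6* made up 28.2% of the sum of *Cdk4* and *Cdk6* in MAC and 2.4% in HP.

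In mitosis *Cdc20* (chr4:118428093-118437343) fell most, with 122 (ESC), 64.5 (MES), 65.7 (HB), 53.9 (HP) and 0.871 FPKM (MAC). *Top2a*, which untangles replicated DNA, was at 86.4, 102, 126, 104 and 3.37 FPKM in the same order. *Plk1* went from 23.0 to 0.482 FPKM, *Bub1b*, a spindle checkpoint kinase, from 40.0 to 0.902 FPKM and *Mki67* from 51.3 to 2.46 FPKM. *Mad2l1*, another checkpoint gene, fell least, from 28.9 to 5.32 FPKM (-2.24), which is still more than the median of the cyclins and CDKs.

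The E2F activators parted in MAC. *E2f2* fell from 11.2 to 1.34 FPKM (-2.38), and *E2f1* went from 5.61 to 8.10 FPKM, a difference of 0.46 as deposited and -0.17 with upper quartiles made equal. Of the 5 inhibitors 2 fell from ESC to MES (*Cdkn2a* and *Cdkn2b*), where 7.3% of all genes fell, and 2 rose from HB to HP (*Cdkn1a* and *Cdkn2a*), where 8.86% rose. From HP to MAC 3 rose (*Cdkn1a*, *Cdkn2a* and *Cdkn2b*), where 33.4% of all genes rose, and 1, *Cdkn2c*, fell just to the threshold, where 13.9% fell. *Cdkn1a*, which encodes p21, was at 21.7 (ESC), 10.9 (MES), 8.52 (HB), 23.3 (HP) and 99.5 FPKM (MAC), with differences of 1.35 at HB to HP and 2.05 at HP to MAC. *Cdkn2b*, which encodes p15, was at 2.11, 0.514, 0.802, 1.94 and 5.84 FPKM, and its rise to MAC (1.22) was 0.63 with upper quartiles made equal. *Cdkn1b*, which encodes p27, was highest in MES at 17.9 FPKM and lowest in MAC at 8.25 FPKM, and *Cdkn2c*, which encodes p18, was highest in HP at 2.16 FPKM. The inhibitors together made up 0.0145% of all FPKM in HB, 0.0359% in HP and 0.0688% in MAC.

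*Cdkn2a* (chr4:89274473-89294619) had the widest range of the 50 genes in fold terms after *Cdc20*, with 9.64 (ESC), 1.45 (MES), 2.44 (HB), 27.2 (HP) and 148 FPKM (MAC). It encodes p16INK4A and p19ARF from separate starts, and the table held 2 rows for it, each a transcription start site (TSS). One row was at 0.168 (ESC), 0.267 (MES), 0.180 (HB), 8.94 (HP) and 146 FPKM (MAC), and the other at 9.48, 1.18, 2.26, 18.2 and 2.34 FPKM. The first thus carried 1.7% of the gene in ESC, 32.9% in HP and 98.4% in MAC, and the rows moved in opposite directions from HP to MAC. RefSeq places starts of the gene within chr4:89282143-89282442 and chr4:89294570-89294869 on the minus strand, and the table does not say which row belongs to which. Reads of overlapping transcripts are divided between rows by the quantification, so that single rows are less certain than their sum. With the row of the higher mean in place of the sum the difference from ESC to MES was 0.12 and not -2.12.

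**Figure D3:**
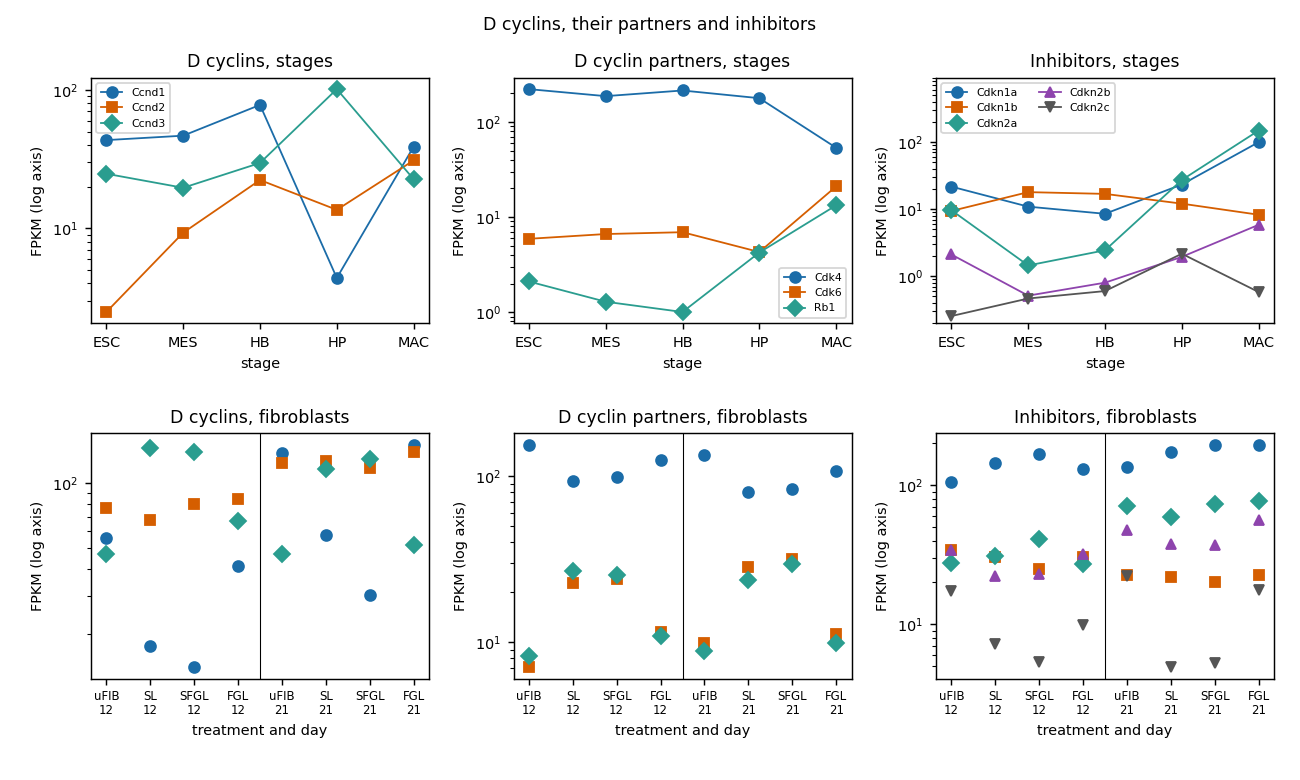
Levels in FPKM (log axis) of the D cyclins (left), of *Cdk4*, *Cdk6* and *Rb1* (middle) and of the inhibitors (right), in the 5 stages (top, joined by lines) and in the 8 MEF libraries (bottom, each treatment named above its day). Among the stages *Ccnd1* dips to 4.37 FPKM in HP where *Ccnd3* peaks at 101 FPKM. Of the 5 stages MAC has *Cdk4* and *Cdk6* closest to each other and *Cdkn1a* and *Cdkn2a* highest.

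Further genes of the pathway were taken from lists made by function. At the step from HP to MAC 13.9% of all genes fell and 33.4% rose. Of 33 other genes of the replication phase 25 fell and 0 rose, with *Uhrf1*, which helps to copy DNA methylation, falling most (68.8 to 1.35 FPKM). Of 41 other mitosis genes 39 fell and 0 rose, with *Kif11*, a motor of the spindle, falling most (32.7 to 0.921 FPKM) and *Bub3* least (-0.44). Of 12 other RB, E2F and inhibitor genes 5 fell, most of all the repressor *E2f8* (4.73 to 0.416 FPKM), and 2 rose, with the RB relative *Rbl2* rising most (3.73 to 19.6 FPKM). Of 9 genes of the p53 pathway 3 rose, a share close to the 33.4% of all genes, with *Sesn1* rising most (7.27 to 53.5 FPKM), and *Trp53* itself fell (21.2 to 5.20 FPKM). At the earlier steps 1 of the 33 replication genes rose (*Rfc4*, ESC to MES, where 6.94% of all genes rose) and 0 fell. Of the 41 mitosis genes 3 fell from ESC to MES, a share close to the 7.3% of all genes that fell. From HB to HP 1 of them rose (*Cdc25b*), where 8.86% of all genes rose.

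In MEFs the check of the factors came first. *Tal1* was at 0.0414 (uFIB), 62.0 (SL), 58.0 (SFGL) and 7.04 FPKM (FGL) at day 12, and in this order at 0.415, 347, 119 and 0.0705 FPKM at day 21. *Fli1* was at 3.35 FPKM in FGL at day 21 against 3.02 in uFIB, and in SL, whose label names neither gene, *Fli1* was at 46.7 and *Gata2* at 68.8 FPKM at day 12. In FGL, *Tal1* on day 12 and *Fli1* on day 21 went against the label, which is kept here as a label only. *Lmo2* and *Gata2* went with it on both days. *Lmo2* was at 36.2 and 66.5 FPKM in FGL at day 12 and day 21, against 0.499 and 2.28 in uFIB. *Gata2* was at 21.9 and 35.1 FPKM in FGL, against 1.80 and 2.13 in uFIB. The 5 fibroblast markers were *Col1a1*, *Col1a2*, *Col3a1*, *Dcn* and *Postn*. They summed to 7448 and 5671 FPKM in uFIB at day 12 and day 21, 2474 and 1491 in SL, 1993 and 1169 in SFGL and 6226 and 5684 in FGL. The 3 globins were listed at 0 in uFIB at day 12 and summed to 0.0949 FPKM in uFIB at day 21, and at both days to 85.5 and 195 FPKM in SL, 44.8 and 192 in SFGL and 21.1 and 0.231 in FGL. SL and SFGL thus held fewer fibroblast transcripts and more of blood, and the part of this in the differences below was not tested. Estimated from the steps of the lowest values, depth relative to uFIB at day 12 was 1.12 to 1.56 in the treated libraries of day 12, 1.43 in uFIB of day 21 and 0.587 to 0.775 in its treated libraries.

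In SL and SFGL most cycle genes rose against uFIB of the same day, and in FGL few did (the heat map of differences in fibroblasts). At day 12 37 of 46 cycle genes rose in SL, where 14.2% of all genes rose, and 38 rose in SFGL, where 14.7% rose. At day 21 the numbers were 36 in SL, where 11.9% of all genes rose, and 37 in SFGL, where 13.9% rose. In each of these 4 comparisons 1 cycle gene, *Ccnd1*, fell, where 13.5%, 17%, 12.3% and 15.9% of all genes fell. The medians at day 12 were 1.81 (SL) and 1.82 (SFGL), those at day 21 were 1.57 and 1.67, and the medians of all genes lay between -0.04 and -0.03. Of the 39 cycle genes that rose in SL on either day 34 rose on both, and of the 40 in SFGL 35 did. The same overlap was not counted over all genes that rose, so it is not shown to be particular to the cycle genes. SL and SFGL share their uFIB libraries. They lay close to each other for most genes, at a median distance over the 51 genes of 0.11 on the log2 scale on both days. The largest distance was 0.39 at day 12 (*Cdkn2a*) and 0.90 at day 21 (*Ccnd1*).

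**Figure D4:**
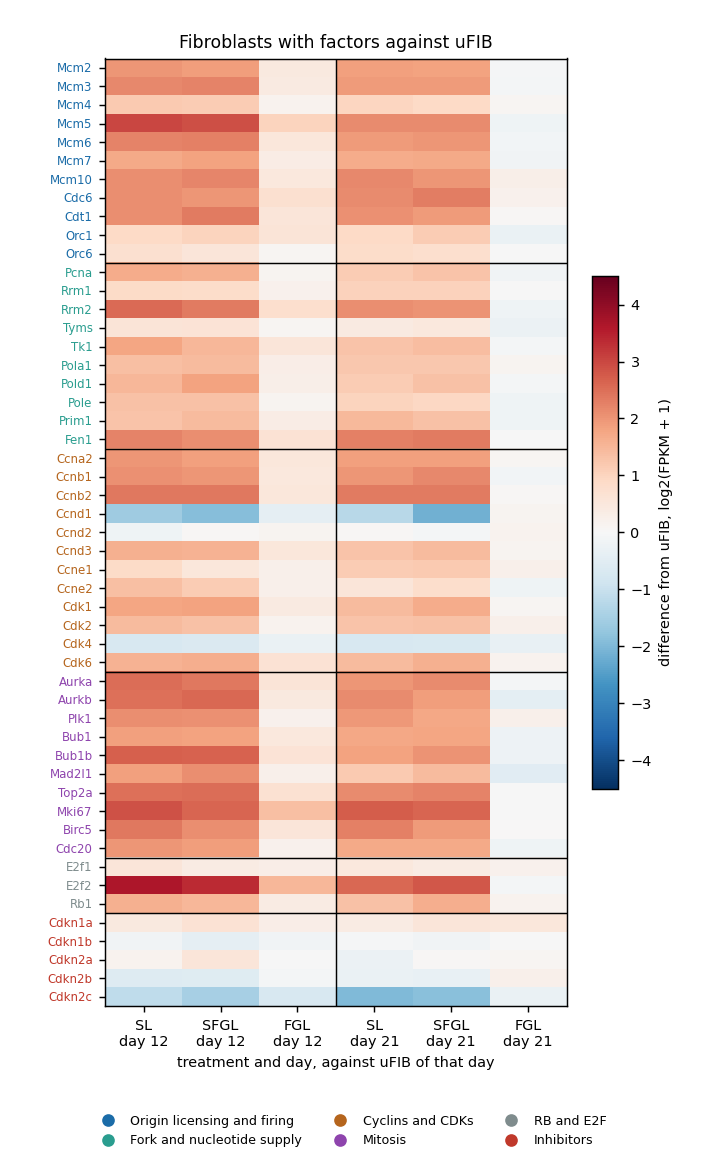
Difference from uFIB of the same day on log2(FPKM + 1) for each of the 51 genes (rows, names coloured by role) in SL, SFGL and FGL at day 12 (left) and day 21 (right). Red marks higher and blue lower; the SL and SFGL columns are red for most rows and blue for *Ccnd1*, *Cdk4* and *Cdkn2c*, and the FGL columns are pale, most of all at day 21.

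All 10 mitosis genes rose in SL and SFGL on both days, with medians of 2.42 and 2.23 at day 12 and 1.97 and 1.91 at day 21. *Mki67* was at 6.55 (uFIB), 53.8 (SL), 45.8 (SFGL) and 18.3 FPKM (FGL) at day 12, and in this order at 7.08, 52.0, 48.8 and 7.0 FPKM at day 21. *Bub1b* was at 3.32, 27.2, 26.5 and 5.64 FPKM at day 12 and at 4.10, 17.0, 19.5 and 3.38 FPKM at day 21. In both genes SL and SFGL stood far above uFIB, and FGL lay between them at day 12 and beside or below uFIB at day 21. *Bub1*, a checkpoint kinase with values only in MEFs, was at 1.45 FPKM (uFIB), 7.74 (SL) and 7.57 (SFGL) at day 12.

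Of the 11 origin genes, read against the shares of all genes given above, day 12 saw 9 (SL) and 10 (SFGL) rise, and day 21 saw 8 and 9. *Mcm5* (chr8:75109528-75128439) had the largest difference of the role at day 12, from 4.48 FPKM in uFIB to 43.2 in SL (3.01) and 39.9 in SFGL (2.90). The licensing genes *Cdc6* and *Cdt1* rose from 0.756 to 6.45 and 5.92 FPKM and from 4.26 to 21.4 and 25.4 FPKM. *Orc6*, a subunit of the origin recognition complex, was at 7.62, 13.1 and 11.6 FPKM and stayed under 2-fold on both days. The subunits of the helicase were more even in SL than in uFIB, since *Mcm5* made up 6.9% of their sum in uFIB and 15.7% in SL at day 12 and *Mcm4* 22.8% and 12.7%.

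Of the 10 fork genes 8 rose in SL and in SFGL on each day. *Pcna*, which hardly differed between the stages, rose in MEFs, at day 12 from 42.5 FPKM (uFIB) to 136 (SL) and 130 FPKM (SFGL). *Rrm2* went from 8.96 to 57.1 and 49.7 FPKM, and *Fen1* from 4.37 to 24.1 and 21.7 FPKM. *Tyms*, the thymidylate synthase, had the smallest differences of the role, 0.60 and 0.61 at day 12 and 0.41 and 0.48 at day 21.

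Cyclins and their kinases moved in both directions. *Ccnd1* was at 55.7 (uFIB), 17.7 (SL), 14 (SFGL) and 41.4 FPKM (FGL) at day 12, and in this order at 138, 57.6, 30.5 and 151 FPKM at day 21, so that SL and SFGL were lower than uFIB on both days. Against the mean of both uFIB libraries the difference of *Ccnd1* in SL at day 21 was -0.74, under 2-fold. *Ccnd3* was at 47.1, 146, 139 and 66.8 FPKM at day 12 and at 47.0, 117, 129 and 51.7 FPKM at day 21, so that SL and SFGL were higher than uFIB on both days. *Ccnd2* stayed within 67.8 to 79.9 FPKM in uFIB, SL and SFGL at day 12, with differences of -0.18 and 0.05. The share of *Ccnd3* among the D cyclins at day 12 was therefore 26.2% (uFIB), 63.0% (SL) and 59.7% (SFGL). *Cdk6* rose from 7.04 to 22.7 and 24.1 FPKM at day 12, while *Cdk4* went from 155 to 93.6 and 98.7 FPKM (-0.72 and -0.65), so that the share of *Cdk6* in their sum was 4.3% (uFIB), 19.5% (SL) and 19.6% (SFGL). *Ccnb2*, the mitotic cyclin with the largest difference at day 12, went from 6.22 to 36.4 and 36.8 FPKM.

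*E2f2* had the largest difference of all 51 genes at day 12. It was at 0.385 (uFIB), 16.2 (SL), 13.1 (SFGL) and 2.87 FPKM (FGL) at day 12, and in this order at 0.589, 8.64, 9.90 and 0.512 FPKM at day 21. *Rb1* also rose, from 8.28 to 26.9 and 25.3 FPKM at day 12, whereas *E2f1* was at 9.32, 13.9 and 12.2 FPKM and did not reach 2-fold. Of the 5 inhibitors 0 rose in SL and SFGL, and *Cdkn2c* fell in both on both days, from 17.2 FPKM (uFIB) to 7.22 (SL) and 5.4 FPKM (SFGL) at day 12, and from 22.2 to 4.90 and 5.25 FPKM, respectively, by day 21. *Cdkn1a* was high in every library, at 106 (uFIB), 145 (SL), 168 (SFGL) and 131 FPKM (FGL) at day 12, and in this order at 135, 173, 196 and 193 FPKM at day 21. In SL and SFGL levels of mitosis genes were thus above those of uFIB, and levels of *Cdkn1a* were not lower. Whether the same cells held both cannot be told from these bulk samples.

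In the libraries labelled FGL 3 of 46 cycle genes rose at day 12, *Mcm5*, *Mki67* and *E2f2*, where 2.96% of all genes rose, and 0 fell, where 0.302% fell. FGL lay between uFIB and SL for 45 of 46 cycle genes at day 12 and for 17 of 46 at day 21. The median difference of the cycle genes from uFIB at day 12 was 0.43. How many of all genes lay between was not counted, so this position is not shown to be particular to the cycle genes. The FGL library of day 12 was also the one with *Tal1* and globins above those of uFIB, and their part in these values was not tested. At day 21 0 of the 43 cycle genes above 1 FPKM rose, where 0.479% of all genes rose, and 0 fell, where 0.376% fell, with a median of -0.03.

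Between day 12 and day 21 the D cyclin *Ccnd1* and the inhibitor *Cdkn2a* rose in uFIB. In each treatment 1 cycle gene rose, a share close to that of all genes. *Ccnd1* was the only cycle gene of 43 that rose in uFIB, from 55.7 to 138 FPKM (1.29), where 1.87% of all genes rose, and 0 fell, where 1.28% fell. It was also the only one of 46 that rose in SL (1.65), where 1.77% of all genes rose, in SFGL (1.06), where 2.2% rose, and in FGL (1.84), where 3.24% rose. In SL and SFGL 0 fell, where 2.93% and 2.75% of all genes fell, and in FGL 2 fell, *Mki67* (-1.27) and *E2f2* (-1.35), where 4.06% fell. Of the 5 inhibitors 1, *Cdkn2a*, rose in uFIB and in FGL, and 0 rose in SL and SFGL. These counts are to be read against the same shares of all genes. *Cdkn2a* went from 27.5 to 71.4 FPKM in uFIB (1.34) and from 27.1 to 76.4 FPKM in FGL (1.46). It went from 31.0 to 58.9 FPKM in SL (0.91) and from 40.9 to 73.6 FPKM in SFGL (0.83), so that every treatment had its higher value at day 21. The median of the cycle genes between the days was -0.0019 (uFIB), -0.21 (SL), -0.19 (SFGL) and -0.52 (FGL), beside medians of all genes of -0.05, -0.10, -0.08 and -0.01.

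The other genes of the pathway followed the same order in MEFs. In SL at day 12, where 14.2% of all genes rose and 13.5% fell, 23 of 37 further replication genes rose and 0 fell, led by *Uhrf1* (4.30 to 43.1 FPKM), and 37 of 42 further mitosis genes rose and 0 fell, led by the transcription factor *Mybl2* (2.99). In SFGL, where 14.7% of all genes rose, 24 of 37 and 35 of 42 rose. *E2f8* rose most among the other RB, E2F and inhibitor genes in SL, from 1.11 to 18.3 FPKM, and *Cdkn1c*, which encodes p57, fell most, from 49.6 to 17.5 FPKM. In FGL at day 12, where 2.96% of all genes rose, 1 of 36 replication genes and 0 of 42 mitosis genes rose.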

How the data were processed

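RNA-seq of 18 mouse samples was analysed from gene tables. For the stages the authors depleted ribosomal RNA, made SOLiD total RNA libraries, aligned the reads to mm10 (GRCm38) with SHRiMP, kept unique alignments, removed duplicates with Picard and quantified transcription start site groups with Cufflinks. The submitters' processing notes name Cufflinks for MES, HB, HP and MAC, Bowtie and HOMER for ESC, so that ESC may have been processed differently, and TopHat and Cufflinks with mm10 for the fibroblasts. Versions are not given in the sources used here. The deposited values are FPKM, and the column of each stage combines 2 replicates. Library totals are unknown; in the fibroblasts 15.3% to 19.3% of low genes lay at the step that gave relative depth, so whole reads were not recovered.

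Rows were summed per gene name (22089 rows for 20066 names in the stages), 5 of the 51 genes having several. File starts were read as counted from 0 and 1 was added. Differences were taken on log2(FPKM + 1) for genes with at least 1 FPKM in either condition, over 14 comparisons. A limma fit, planned for the stages if columns of single replicates were given, was not carried out because the columns combine replicates. None was planned for the fibroblasts, with 1 library per condition. No p-value was computed. Any of the 51 genes could be named, and from each of 4 further pathway lists the genes with the highest and the lowest difference in a comparison. Genes and lists were chosen with earlier results of these data known. Motifs were searched in RefSeq promoters. The steps were tested on simulated data. Alternatives were a pseudocount of 0.1, scaling to the same upper quartile, no filter, the TSS row with the highest mean and the mean of both uFIB libraries. A marker gene of the list for red cells is not reported here. 1 column (HE, hemogenic endothelium) that matched no sample was not analysed here. 12 of the 51 genes share exon bases with a protein-coding gene on the opposite strand (*Ccna2*, *Ccnd1*, *Ccnd3*, *Ccne2*, *Cdc20*, *Cdk2*, *Cdk4*, *Fen1*, *Mcm7*, *Orc6*, *Rb1* and *Tk1*), and whether counting used strand is not given in the sources used here, so their values are less certain. Python 3.11.15, NumPy 2.4.6, pandas 2.3.3 and matplotlib 3.10.9 were used.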

Additional observations from a re-analysis of the deposited data

How the results depend on the processing

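Of the values of single genes, 694 of 710 kept their direction and their side of 2-fold with a pseudocount of 0.1 FPKM, 700 of 710 with upper quartiles made equal, 199 of 200 with the TSS row of the highest mean and 298 of 306 against the mean of both uFIB libraries. With the pseudocount of 0.1 FPKM 2 cycle genes fell from ESC to MES, 5 rose in FGL at day 12 and 6 fell in FGL from day 12 to day 21, and the median of *E2f1*, *E2f2* and *Rb1* was -1.44 from ESC to MES and 1.97 from HB to HP. With upper quartiles made equal 2 cycle genes rose from HP to MAC, the medians there were -3.49 for the cycle genes, -2.75 for the cyclins and CDKs and -0.17 for the RB and E2F genes, and 2 rose in SL from day 12 to day 21. Against the mean of both uFIB libraries 1 cycle gene (*Ccnd1*) fell in FGL at day 12 and 0 fell in SL at day 21. With the TSS row of the highest mean *Cdkn2a* differed by 0.12 from ESC to MES. The cause of these shifts was not tested. Among all genes that changed, the share that rose after the scaling was 44.1% in FGL at day 21, against 56.0% as deposited, and 55.6% in SFGL from day 12 to day 21, against 44.5%. Without the filter 0 of 126 counts and medians moved. No paired analysis was possible because the columns of the stages combine their replicates, and leaving out a replicate and a replicate block were not run for the same reason. The fibroblasts have no replicate numbers, and a fit that takes their days as a block was not run, since the days are conditions and not replicates. A single value per condition limits every difference, and low genes such as *Cdc6*, *Orc1* and *E2f2* are the least certain.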

Other observations

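*Trp53*, which encodes p53, was highest in ESC at 146 FPKM, and it was at 25.1 FPKM in MES and 5.20 FPKM in MAC. Of the 9 genes of the p53 list 3 fell from ESC to MES, where 7.3% of all genes fell: *Trp53* itself and its targets *Mdm2* (48.1 to 17.7 FPKM) and *Zmat3* (12.3 to 4.36 FPKM), both named after their values were seen. The target *Sesn1* alone rose at that step (1.45), where 6.94% of all genes rose, and it rose again from HP to MAC (2.72). In MEFs 0 of the 9 genes of this list rose or fell in SL or SFGL on either day, where 11.9% to 14.7% of all genes rose and 12.3% to 17% fell, and the largest difference was that of *Bbc3* in SFGL at day 12 (0.98).

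The proportion between the E cyclins changed along the stages. The share of *Ccne2* in their sum was 7.8% (ESC), 26.0% (MES), 33.7% (HB), 44.6% (HP) and 16.3% (MAC). *Mybl2*, a transcription factor of mitosis genes, was at 58.1 FPKM in ESC and 9.84 FPKM in MES, and at 5.92 FPKM in HP and 0.181 FPKM in MAC. The 9 mitosis genes in the report with stage values differed by -0.91 to 0.45 from ESC to MES, and *Mybl2* by -2.45.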
